A study of Rattus norvegicus with 19 samples.

Results

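The glutathione, thioredoxin and NRF2 redox genes were a list of 37 genes. Their roles were grouped as glutathione, thioredoxin, NADPH supply, NRF2 control and quinones, and superoxide, catalase and ferritin. Members were all probe sets annotated to exactly 1 gene of the list on either of the 2 Affymetrix array types. The rule found 44 probe sets of 31256, which belonged to 34 genes of the 13811 with a probe set of their own. The first array type held 37 member probe sets of 32 genes, and the second held 7 of 5 genes. Gpx4, Idh1 and Srxn1 were on both. Of the 44 probe sets 42 passed the filter on low values, a Ggct and an Idh1 probe set of the second type being too dim. For Prdx1, Fth1 and Ftl1 no probe set mapped to them alone, so they are not analysed here. RNA came from livers of adult rats that had been fasted overnight. Treated rats were injected intraperitoneally with pregnenolone-16α-carbonitrile (PCN, 100 mg/kg, once), a steroid ligand of the pregnane X receptor in rodents, and control rats with its vehicle, corn oil. All livers were taken 8 h after the injection. The labels give 5 biological replicates per group, and no strain, sex or pooling. On the first array type there were 5 PCN and 5 corn oil arrays, and on the second 5 PCN and 4 corn oil arrays, since no array of corn oil replicate 2 was analysed here for that type. The stated question was whether genes outside drug metabolism are part of the protection that PCN gives against stress.

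Cells hold their thiols in the reduced state through a pair of parallel systems that both draw electrons from NADPH. Glutathione is made from glutamate, cysteine and glycine, is oxidised by glutathione peroxidases and glutaredoxins, and is restored by glutathione reductase. Thioredoxin reduces peroxiredoxins and methionine sulfoxide reductases and is itself restored by thioredoxin reductase. Many of these enzymes are targets of NRF2, the transcription factor encoded by Nfe2l2, which KEAP1 marks for destruction until electrophiles or oxidants modify KEAP1. Liver is a main site of glutathione synthesis and export.

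Every value below is a log2 expression value of a probe set, so a difference of 1 is a 2-fold change, and probe sets are compared with themselves across arrays. Cyp3a23-3a1, which the pregnane X receptor is known to induce, rose 1.57-fold on the first array type (log2 fold change 0.65 ± 0.10 SE, adjusted p = 0.00543, limma, n = 5 per group). The hepatocyte markers Alb, Apoa1, Ttr and Serpina1 had group means from 14.08 to 15.15 and log2 fold changes from -0.05 to 0.03.

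One control array of the first type, corn oil replicate 2, stood apart. The difference between the 3′ and 5′ control probe sets of Gapdh, which grows when RNA is broken or copied incompletely, was 2.02 on that array and 0.56 to 0.85 on the other 9. For beta-actin it was 2.28 against 0.41 to 0.56. On that array 308 of 11106 tested probe sets (2.77%) lay at least 1 below the mean of the other 4 corn oil arrays, and 5 of the 37 member probe sets did, those of Gclc, Glrx, Gsr, Keap1 and Txnrd1 named below. The main results of the first array type that it moves are therefore also given without it. On the second array type the medians over all probe sets were 6.25 to 6.32 on PCN arrays and 6.32 to 6.33 on corn oil arrays (exact two-sided permutation p = 0.0159), and the balance of higher against lower calls there depends on how arrays are scaled to each other. The share of called probe sets that were higher was 69.7% there and 87.8%, 44.5% or 3.23% after scaling to a common median, to a trimmed mean or to the probe sets that the array types have in common. On the first array type it was 70.9%, and 59.4% after scaling to a trimmed mean, 57.9% after quantile normalization and 45.9% after centring on the common probe sets.

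In all, 4 of the 34 measured redox genes passed the test. Gsr and Srxn1 rose and Glrx fell on the first array type, and Ggct rose on the second. The genes were tested in each array type with limma and Benjamini-Hochberg adjustment over all its probe sets, at a threshold of 0.05, and where a gene had several probe sets the brightest stood for it. The list was chosen with earlier results of these data known, so the shares of all genes are printed beside its counts for description only. Of 32 member genes on the first array type 2 rose and 1 fell, against 2.30% and 0.979% of all 8073 genes tested. Of 4 tested on the second 1 rose and 0 fell by limma, against 5.33% and 1.19% of 4688 genes. The median log2 fold change of the 32 genes was 0.03, with 19 above 0, and that of all genes was 0, with 49.6% above 0. At an unadjusted p below 0.05, 7 of the 32 genes were higher and 2 lower, against 11.1% and 6.69% of all genes. PCN arrays lay entirely above corn oil arrays for 4 of the 32 genes (Gsr, Srxn1, Keap1 and Txnrd1) and entirely below for 1 (Glrx), against 3.98% and 2.13% of all genes. On the second array type 3 of the 4 genes had a log2 fold change above 0 (49.6% of all genes there). With limma's unadjusted p below 0.05 as the limit, 2 were higher (18.3% of all genes) and 0 lower (10.6%). The groups did not overlap for 2, Ggct and Srxn1, both higher (7.34%), and for 0 lower (3.82%). In whole liver, a change in RNA per cell cannot be told apart from a change in how many cells of a type were present.

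**Figure D1:**
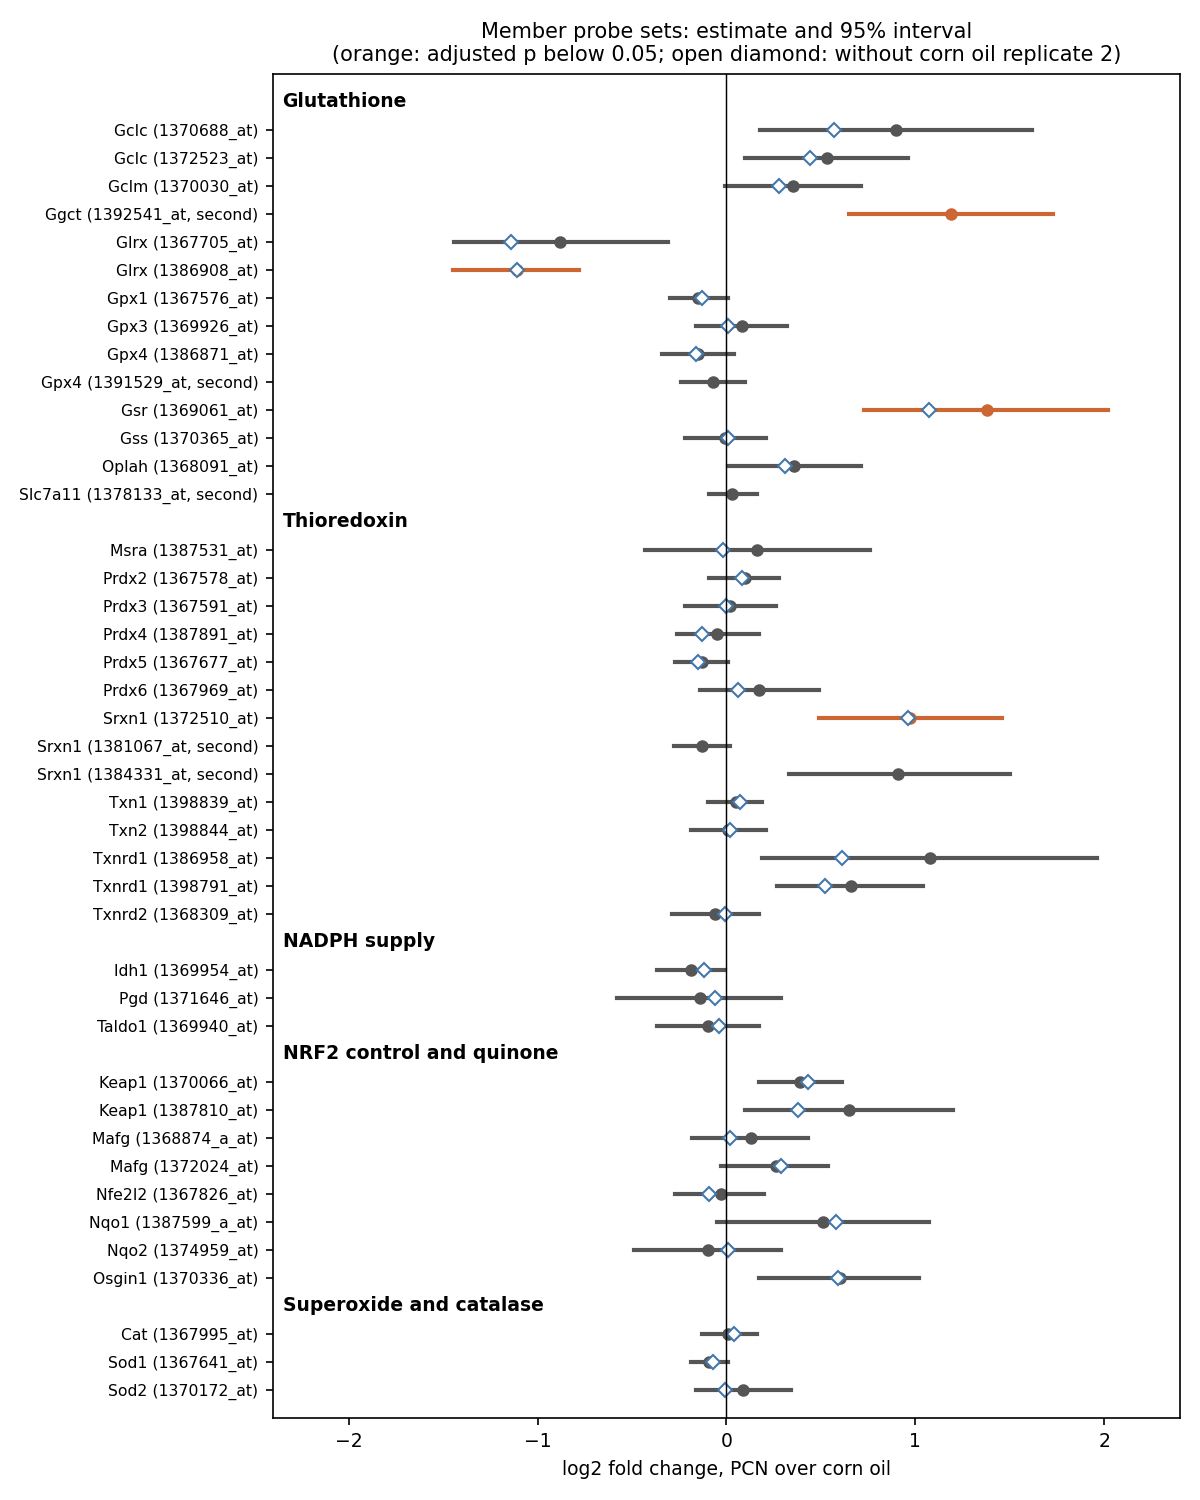
Log2 fold change of PCN over corn oil for the 42 tested probe sets of the redox genes, ordered by role, with 95% intervals from limma as bars, orange where the adjusted p was below 0.05 and open diamonds for the estimate without corn oil replicate 2. Gsr, Ggct and the called Srxn1 probe set stand to the right of 0, both Glrx probe sets to the left, and the peroxiredoxin, superoxide dismutase and NADPH supply estimates lie within 0.2 of 0.

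Glutathione reductase, encoded by Gsr, returns oxidised glutathione to its reduced form at the cost of NADPH. Its probe set read 8.96, 7.33, 8.76, 9.06 and 8.75 in corn oil replicates 1 to 5 and 10.36, 9.95, 9.64, 10.21 and 9.58 in PCN replicates 1 to 5. All PCN arrays were above all corn oil arrays, and the lowest value was that of corn oil replicate 2, which stood 1.55 below the mean of the other corn oil arrays. The rise was 2.60-fold (log2 fold change 1.38 ± 0.29 SE, adjusted p = 0.0287, limma). Without corn oil replicate 2 it was smaller and more precise, 2.09-fold (1.07 ± 0.16 SE, adjusted p = 0.00588, limma, with 4 corn oil arrays). The call depended on single arrays. Dropping corn oil replicate 3 or 5 raised the adjusted p to 0.0547 or 0.0529, and dropping PCN replicate 1, 3 or 4 raised it to 0.0746, 0.0527 or 0.0766. The log2 fold change stayed between 1.07 and 1.5 when any single array was left out.

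Glrx encodes the cytosolic glutaredoxin, which uses glutathione to free protein thiols from mixed disulfides. It was the redox gene that fell. The brighter probe set, 1386908_at, read 10.67, 10.87, 10.89, 11.04 and 10.73 in corn oil and 9.57, 9.87, 9.97, 9.19 and 10.02 after PCN. The groups did not overlap, and PCN replicate 4 was the lowest. After PCN the level was 2.16-fold lower (-1.11 ± 0.15 SE on the log2 scale, adjusted p = 0.00295, limma, n = 5 per group). The call held with each array left out (adjusted p up to 0.0121) and in the 9 other alternatives that did not average probe sets. Corn oil replicate 2 did not stand apart on this probe set, and without it the fold was 2.15. The dimmer probe set, 1367705_at, read 9.85, 8.72, 9.97, 10.41 and 9.97 in corn oil and 8.73, 9.02, 9.15, 8.54 and 9.11 after PCN. Here corn oil replicate 2 lay within the PCN range, and the log2 fold change of -0.88 ± 0.26 (SE) missed the threshold (adjusted p = 0.0937, limma). Without that array it was -1.14 ± 0.15 and passed (adjusted p = 0.00294), so that both probe sets of Glrx were then about equally lower.

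Red blood cells also hold glutaredoxin, and their markers had negative differences that did not pass the test. For Hbb the difference was -0.39 (adjusted p = 0.11, limma, n = 5 per group), for Alas2 it was -0.59 (adjusted p = 0.145) and for Slc4a1 it was -0.18. The mean over the 3 of 5 red cell markers tested ranged from 10.71 to 11.00 in corn oil and from 10.22 to 10.90 after PCN. Their part in the change of Glrx was not tested.

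Ggct encodes a cyclotransferase that cuts γ-glutamyl amino acids in the glutathione cycle, and was measured on the second array type alone. It read 8.68, 8.55, 7.79 and 7.52 in corn oil replicates 1, 3, 4 and 5 and 9.63, 9.30, 9.43, 9.55 and 8.71 in PCN replicates 1 to 5. The groups were separated by a narrow margin, between PCN replicate 5 and corn oil replicate 1. The rise was 2.28-fold (log2 fold change 1.19 ± 0.25 SE, adjusted p = 0.0244, limma, 4 corn oil and 5 PCN arrays). It was called under each of the 9 alternatives that kept all arrays and did not average probe sets. Its log2 fold changes went down to 0.91 there, when arrays were centred on the common probe sets. The call was lost without corn oil replicate 4 (adjusted p = 0.0846), PCN replicate 1 (0.0614), PCN replicate 3 (0.0589) or PCN replicate 4 (0.0524). A dimmer Ggct probe set lay under the filter on low values, with means of 4.98 ± 0.22 in corn oil and 5.51 ± 0.25 after PCN (SD, n = 4 and 5), and was not tested.

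The neutrophil marker and the Kupffer cell markers tested had positive differences alongside these genes, some of them very small. On the first array type the neutrophil marker S100a9, the 1 of 5 tested, ranged from 6.94 to 7.48 in corn oil and from 7.28 to 8.46 after PCN (adjusted p = 0.153, limma, n = 5 per group). The mean of the 3 of 5 Kupffer cell markers tested there ranged from 10.38 to 10.87 and from 10.42 to 11.26. Their differences were 0.26 for Cd68, 0.06 for Clec4f and 0.02 for Csf1r (adjusted p = 0.506, 0.854 and 0.965, limma). On the second, the Kupffer cell marker Cd163 had group means of 9.29 in corn oil and 9.70 after PCN by its brightest probe set (difference 0.40, adjusted p = 0.136), and a dimmer one was called higher (0.58, adjusted p = 0.0371). The lymphocyte markers tested were Ptprc on the first, with a difference of 0.04, and Cd3e on the second, with one of -0.15 (unadjusted p = 0.0428, adjusted p = 0.169, limma). Among stellate cell markers on the first, Col3a1 was higher on all PCN arrays, by 0.43 (adjusted p = 0.0824, limma). There Col1a1 differed by 0.41 (brightest probe set, adjusted p = 0.261), Dcn by 0.11, Lrat by -0.16 and Des by -0.06. Des differed by -0.19 on the second. Endothelial markers ran from -0.14 to 0.15 on the first and from -0.06 to 0.16 on the second, and cholangiocyte markers from -0.07 to 0.04. The part of these cell types in the rises of Gsr, Srxn1 and Ggct was not tested.

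**Figure D2:**
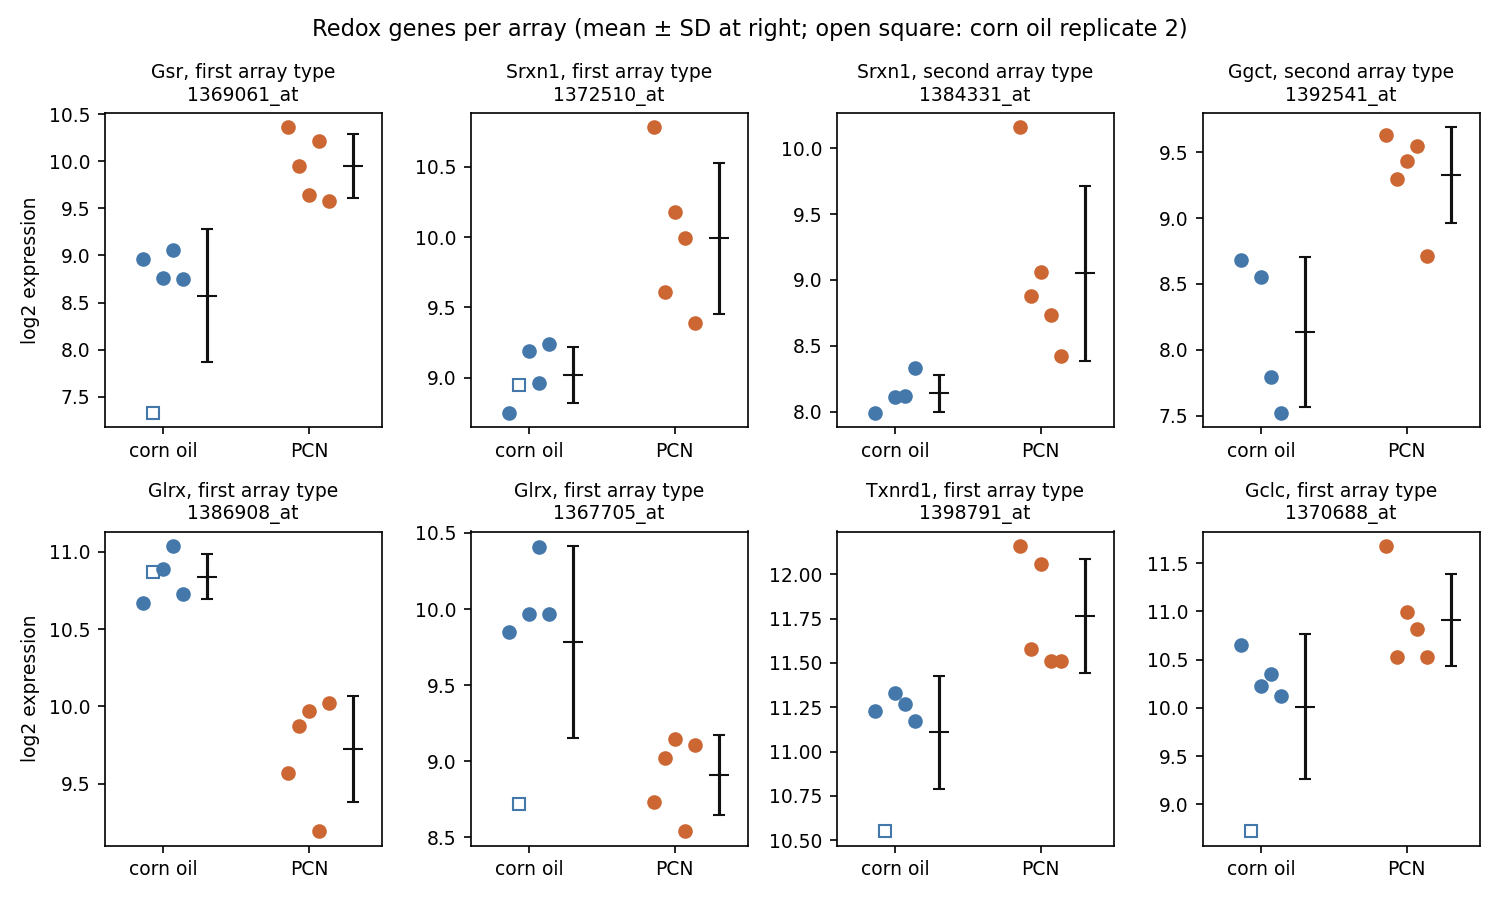
Log2 expression of 6 redox genes on each array (dots), with the mean and SD of each group to the right of its dots, and the first-type array of corn oil replicate 2 as an open square. Gsr and Ggct are higher on all PCN arrays than on all corn oil arrays, Glrx 1386908_at is lower on all of them, and the open square lies far below the other corn oil arrays for Gsr, Gclc, Txnrd1 and Glrx 1367705_at.

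Glutathione synthesis begins with glutamate-cysteine ligase, whose catalytic subunit is encoded by Gclc and whose modifier subunit by Gclm. Gclc probe set 1370688_at read 10.65, 8.72, 10.23, 10.35 and 10.12 in corn oil and 11.68, 10.53, 10.99, 10.82 and 10.53 after PCN. The groups overlapped through corn oil replicate 1, and corn oil replicate 2 was lowest by 1.62 against the mean of the other corn oil arrays. The log2 fold change was 0.90 ± 0.33 (SE, adjusted p = 0.177, limma, n = 5 per group) with that array and 0.57 ± 0.21 (adjusted p = 0.166) without it. The other Gclc probe set, 1372523_at, had log2 fold changes of 0.53 ± 0.20 (adjusted p = 0.18) and, without that array, 0.44 ± 0.20 (adjusted p = 0.238). Gclm read 10.25, 9.73, 9.78, 10.09 and 10.23 in corn oil and 10.88, 10.01, 10.19, 10.29 and 10.44 after PCN, so that only PCN replicates 1, 4 and 5 lay above the corn oil range. The estimate was 0.35 ± 0.17 (adjusted p = 0.302, limma), and 0.28 without corn oil replicate 2 (adjusted p = 0.378).

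The other glutathione genes were not called. Gss, glutathione synthetase, had a log2 fold change of -0.01 with a 95% interval from -0.22 to 0.21, an upper end of 1.16-fold. Oplah, which returns oxoproline to glutamate, had one of 0.36 (0.01 to 0.71, adjusted p = 0.271, limma, n = 5 per group). For Slc7a11, the transporter that imports cystine, the second array type gave 0.03 (-0.09 to 0.16) at a mean close to the filter on low values, 5.75 in corn oil and 5.79 after PCN. The glutathione peroxidases did not pass the test. Gpx1, the abundant cytosolic form, went from 14.18 ± 0.13 to 14.03 ± 0.11 (SD, n = 5 each, adjusted p = 0.302), and Gpx3, the secreted form, from 9.65 ± 0.22 to 9.74 ± 0.09 (adjusted p = 0.75). Gpx4, which reduces lipid hydroperoxides, had log2 fold changes of -0.15 (-0.34 to 0.04) on the first array type and -0.07 (-0.24 to 0.10) on the second. Of the 9 glutathione genes tested on the first array type 1 rose and 1 fell (2.30% and 0.979% of all genes), with a median log2 fold change of 0.08.

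Srxn1, sulfiredoxin, repairs peroxiredoxins that peroxide has over-oxidised. It was measured on both array types, whose arrays carry the same replicate numbers. On the first it read 8.75, 8.95, 9.19, 8.96 and 9.24 in corn oil and 10.78, 9.61, 10.18, 9.99 and 9.39 after PCN. On the second, probe set 1384331_at read 7.99, 8.11, 8.12 and 8.33 in corn oil replicates 1, 3, 4 and 5 and 10.16, 8.88, 9.06, 8.73 and 8.42 after PCN. PCN arrays were above corn oil arrays on both, PCN replicate 1 was the highest and PCN replicate 5 the lowest of the treated animals on both, and the gap to the corn oil arrays was narrow. The first array type gave a 1.96-fold rise (log2 fold change 0.97 ± 0.22 SE, adjusted p = 0.0354, limma), and the second gave 0.91 ± 0.27, which missed the threshold (adjusted p = 0.0672). The second passed when arrays were scaled to a trimmed mean (adjusted p = 0.0473) or centred on the common probe sets (0.0083), and without PCN replicate 1 (log2 fold change 0.64, adjusted p = 0.0438) or PCN replicate 5 (1.07, adjusted p = 0.0257).

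The call of Srxn1 on the first array type was lost without any of 7 arrays. The adjusted p was 0.0685, 0.052, 0.065, 0.0914 and 0.0568 without corn oil replicates 1, 2, 3, 4 and 5, and 0.0868 and 0.0826 without PCN replicates 3 and 4 (limma). Its log2 fold change ranged from 0.77 without PCN replicate 1 to 1.12 without PCN replicate 5, the call being kept in both, and corn oil replicate 2 did not stand apart on this probe set. A dim probe set of the second array type, 1381067_at, had group means of 5.88 and 5.75 and a log2 fold change of -0.13 (adjusted p = 0.236), opposite in sign to the brighter probe set. With arrays centred on the common probe sets it was called lower (-0.41, adjusted p = 0.0112).

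To set Srxn1 and Ggct, which rose, beside Glrx, which fell, the stretch from 130 bases before to 10 bases after the annotated start of each is shown, from RefSeq on rat assembly GRCr8, 5′ to 3′ on the gene's strand. Gsr, which also rose, had no promoter entry and could not be shown. Capitals mark matches on either strand to TGACNNNGC or TGAGNNNGC, a pair of forms of the core bound by NRF2 with small MAF proteins. The stretches lie at chr3:161064682-161064821 on the plus strand for Srxn1, chr4:85459537-85459676 on the minus strand for Ggct and chr2:7073665-7073804 on the plus strand for Glrx.
Srxn1: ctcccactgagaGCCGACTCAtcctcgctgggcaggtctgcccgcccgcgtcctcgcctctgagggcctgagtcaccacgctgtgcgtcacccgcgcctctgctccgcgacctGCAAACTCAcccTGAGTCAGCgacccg
Ggct: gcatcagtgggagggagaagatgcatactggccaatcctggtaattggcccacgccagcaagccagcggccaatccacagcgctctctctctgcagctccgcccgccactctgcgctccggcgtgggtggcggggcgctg
Glrx: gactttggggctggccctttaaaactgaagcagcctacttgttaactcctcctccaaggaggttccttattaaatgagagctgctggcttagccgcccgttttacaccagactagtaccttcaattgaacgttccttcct
Srxn1 held 3 matches, all to TGAGNNNGC, and Ggct and Glrx none in this window. The match TGAGTCAGC at the Srxn1 start begins 5 bases before it and also holds the AP-1 core TGAGTCA.

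Promoter entries of 300 bases were found for 31 of the 37 genes, as 34 entries, since some genes have more than 1. Gsr, Oplah, Msra, Prdx6, Fth1 and Ftl1 had no entry and were not searched. TGACNNNGC was in 8 of these entries (23.5%), those of Gclm, Idh1, Nfe2l2, Prdx1, Prdx4, Prdx5, Sod2 and Txnrd1, and in 12.1% of all 33469 entries. TGAGNNNGC was in 3 (8.82%), those of Gpx1, Gpx4 and Srxn1, and in 17.2% of all entries. The matches describe these letters and not binding. Of the genes with a match and a tested probe set, Srxn1 rose on the first array type and the others were not called there. With all arrays, Txnrd1 (brighter probe set) had a log2 fold change of 0.66, Gclm 0.35 and Sod2 0.09. Those of Nfe2l2, Prdx4, Prdx5, Gpx1, Gpx4 and Idh1 were -0.03, -0.05, -0.13, -0.15, -0.15 and -0.19.

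Txnrd1 encodes the cytosolic thioredoxin reductase, which restores thioredoxin from NADPH. The brighter probe set, 1398791_at, read 11.23, 10.55, 11.33, 11.27 and 11.17 in corn oil and 12.16, 11.58, 12.06, 11.51 and 11.51 after PCN, with no overlap between groups. Its log2 fold change was 0.66 ± 0.18 (SE, adjusted p = 0.0662, limma, n = 5 per group), and 0.52 ± 0.14 (adjusted p = 0.0758) without corn oil replicate 2. The dimmer probe set, 1386958_at, read 10.47, 8.17, 10.34, 10.67 and 10.45 in corn oil and 11.63, 10.83, 11.25, 10.86 and 10.91 after PCN. Corn oil replicate 2 was 2.31 below the mean of the others here, and leaving it out changed the log2 fold change from 1.08 ± 0.40 (adjusted p = 0.186) to 0.61 ± 0.16 (adjusted p = 0.0604). Txnrd1 therefore did not pass the test by either probe set, while its groups did not overlap on either. The adjusted p was near the threshold for the brighter probe set, and for the dimmer only without corn oil replicate 2.

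The thioredoxins and peroxiredoxins themselves did not pass the test. Txn1, the cytosolic thioredoxin, had a log2 fold change of 0.05 (95% interval -0.10 to 0.19, n = 5 per group), its mitochondrial counterpart Txn2 one of 0.01 (-0.19 to 0.21), and the mitochondrial reductase Txnrd2 one of -0.06 (-0.29 to 0.17). Among the peroxiredoxins, which reduce hydrogen peroxide, the values were 0.10 for cytosolic Prdx2, 0.02 for mitochondrial Prdx3, -0.05 for Prdx4 of the endoplasmic reticulum, -0.13 for Prdx5 and 0.17 for Prdx6. The upper ends of their intervals corresponded to rises of at most 1.40-fold, for Prdx6. Without corn oil replicate 2, the lowest array for both, Prdx6 had a log2 fold change of 0.06 (-0.20 to 0.33) and Prdx4 one of -0.13 (-0.29 to 0.03). Prdx5 read 12.36, 12.26, 12.34, 12.33 and 12.31 in corn oil and 12.07, 12.17, 12.20, 12.20 and 12.29 after PCN, a small difference that overlapped through corn oil replicate 2 alone and did not pass with or without it (adjusted p = 0.304 and 0.253, limma). Msra, which repairs oxidised methionine, varied more between animals (SD 0.55 and 0.48), with a log2 fold change of 0.16 ± 0.27 (SE), and -0.02 ± 0.25 without corn oil replicate 2. Of the 11 thioredoxin genes tested on the first array type 1 rose and 0 fell by limma (2.30% and 0.979% of all genes). By unadjusted p 2 were higher and 0 lower (11.1% and 6.69% of all genes), and the median log2 fold change of the 11 was 0.05.

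The members grouped under NADPH supply did not pass the test. Pgd, phosphogluconate dehydrogenase of the pentose phosphate pathway, had a log2 fold change of -0.14 (95% interval -0.58 to 0.29, adjusted p = 0.756, limma, n = 5 per group), and Taldo1, transaldolase of the same pathway, one of -0.10 (-0.37 to 0.17, adjusted p = 0.711). Idh1, the cytosolic isocitrate dehydrogenase, read 13.16, 13.47, 13.11, 13.11 and 13.16 in corn oil and 12.90, 12.92, 13.07, 12.97 and 13.16 after PCN. This was a difference of -0.19 ± 0.08 (adjusted p = 0.251), and -0.12 ± 0.07 (adjusted p = 0.328) without corn oil replicate 2, which held the highest value. A dim Idh1 probe set of the second array type, with a mean of 3.72, lay under the filter. All 3 genes had negative values, with a median of -0.14, while 49.6% of all genes were above 0. Corn oil replicate 2 read above the mean of the other corn oil arrays for each of them. Without it the log2 fold change was -0.06 for Pgd (adjusted p = 0.894, limma) and -0.04 for Taldo1 (adjusted p = 0.869).

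The RNA of the regulator itself was not called. Nfe2l2, which encodes NRF2, read 10.55, 10.15, 10.52, 10.24 and 10.36 in corn oil and 10.27, 10.14, 10.42, 10.34 and 10.49 after PCN, with the groups fully intermingled. Its log2 fold change was -0.03 (95% interval -0.27 to 0.20, adjusted p = 0.898, limma, n = 5 per group). NRF2 is controlled mostly through the stability of the protein, which arrays do not measure.

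Keap1, which encodes the adaptor that holds NRF2 down, was higher on all PCN arrays by both of its probe sets. The brighter, 1370066_at, read 8.77, 8.97, 8.85, 8.74 and 8.75 in corn oil and 9.36, 9.04, 9.45, 9.13 and 9.05 after PCN. The log2 fold change was 0.39 ± 0.10 (SE), with a p just above the threshold (adjusted p = 0.0618, limma, n = 5 per group). Without corn oil replicate 2 it was 0.43 ± 0.10 and passed (adjusted p = 0.0464), as it did without PCN replicate 2 (0.047) and with a filter at the 50th percentile (0.0473). The dimmer probe set, 1387810_at, read 8.76, 7.30, 8.55, 8.74 and 8.62 in corn oil and 9.42, 8.76, 9.24, 8.84 and 8.96 after PCN. PCN replicate 2 and corn oil replicate 1 read alike to the second decimal here. The difference was 0.65 ± 0.25 (adjusted p = 0.207), and 0.38 ± 0.13 (adjusted p = 0.147) without corn oil replicate 2.

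Other genes that NRF2 is known to act on or with gave mixed values. Nqo1, the quinone reductase often used as a readout of NRF2, read 9.91, 9.49, 9.17, 8.93 and 8.53 in corn oil and 10.10, 9.04, 9.59, 10.07 and 9.78 after PCN. The corn oil animals alone spanned more than 1 unit, the groups overlapped, and the log2 fold change was 0.51 ± 0.26 (SE, adjusted p = 0.336, limma, n = 5 per group; 0.58 and 0.262 without corn oil replicate 2). Osgin1, a growth inhibitor induced by oxidative stress, read 12.25, 11.82, 11.58, 11.87 and 11.83 in corn oil and 13.04, 12.26, 12.71, 12.50 and 11.84 after PCN, with a log2 fold change of 0.60 ± 0.20 (adjusted p = 0.125). Only PCN replicate 5 lay within the corn oil range, and without it Osgin1 was called higher. Mafg, a partner of NRF2 on DNA, had values of 0.26 ± 0.13 and 0.13 ± 0.14 by its 2 probe sets, and the quinone reductase Nqo2 one of -0.10 ± 0.18. Without corn oil replicate 2 these were 0.29, 0.02 and 0.01. Of the 6 genes of this group, Nfe2l2 and Keap1 included, 0 were called by limma in either direction (2.30% and 0.979% of all genes). At an unadjusted p below 0.05, 2 were higher and 0 lower (11.1% and 6.69% of all genes), and the median log2 fold change of the 6 was 0.32.

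The enzymes that remove superoxide and hydrogen peroxide directly did not pass the test. Cat, the peroxisomal catalase, went from 12.86 ± 0.08 to 12.88 ± 0.08 (SD, n = 5 each), a log2 fold change of 0.01 with a 95% interval from -0.13 to 0.16. For Sod1, the cytosolic dismutase, the means were 14.05 ± 0.06 and 13.96 ± 0.06 (-0.09, interval -0.19 to 0.01), and for mitochondrial Sod2 10.81 ± 0.22 and 10.90 ± 0.12 (0.09, interval -0.16 to 0.34). The upper ends of these intervals corresponded to rises of 1.12-fold, 1.01-fold and 1.26-fold for the 3 genes. Without corn oil replicate 2 the log2 fold change of Sod2 was -0.01 (interval -0.20 to 0.19). That of Cat was then 0.04 (-0.11 to 0.19) and that of Sod1 -0.07 (-0.18 to 0.04).

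Individual arrays differed in how the redox genes ranked on them. The same ranks were not counted over all genes, so they are not shown to be particular to redox genes. PCN replicate 1 was the highest of the 5 PCN arrays for 11 of the 32 genes on the first array type, among them Gsr, Srxn1, Gclc, Gclm, Txnrd1, Nqo1 and Osgin1. PCN replicate 2 was the lowest of them for 19 of 32. Corn oil replicate 2 was the lowest of all 10 arrays for 9 genes and the highest for 6.

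**Figure D3:**
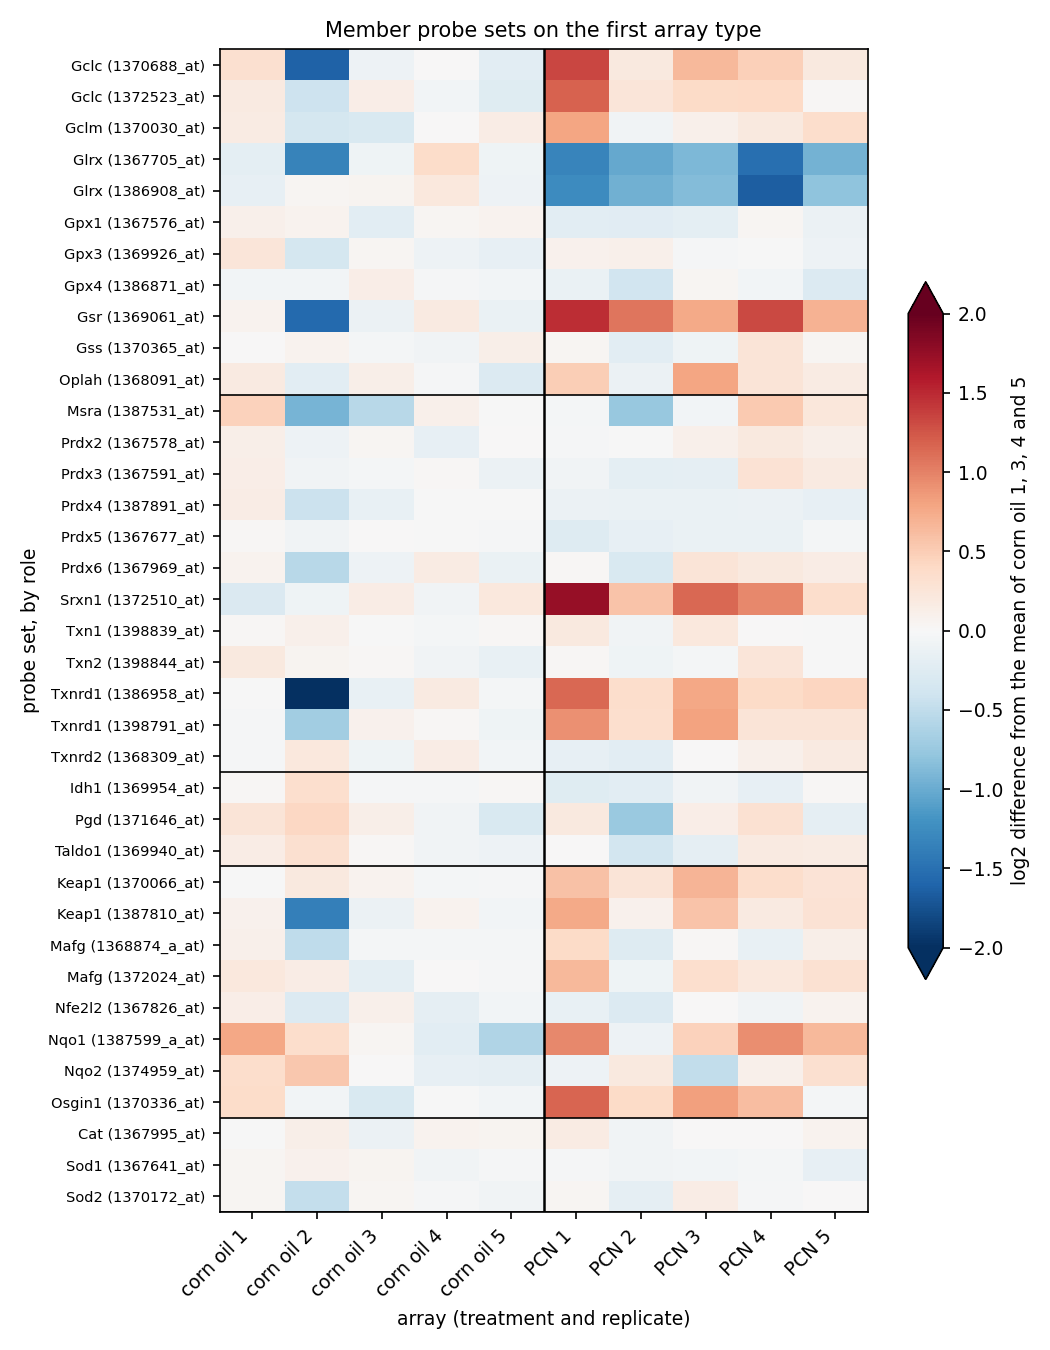
Difference of each array of the first type (columns) from the mean of corn oil replicates 1, 3, 4 and 5, in log2 units, for the 37 member probe sets (rows) grouped by role from glutathione at the top to superoxide and catalase at the bottom. Gsr and Srxn1 are red and Glrx blue across the PCN columns, and most peroxiredoxin rows are pale. Corn oil replicate 2 is deep blue for Gclc 1370688_at, Gsr, Glrx 1367705_at, Keap1 1387810_at and Txnrd1 1386958_at.

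Without corn oil replicate 2 the first array type still gave 2 member genes higher and 1 lower, against 2.53% and 0.892% of all genes, but not the same ones. Gsr and Glrx were called as before, Keap1 was called and Srxn1 was not. At an unadjusted p below 0.05, 6 genes were higher and 1 lower, against 13.3% and 6.48% of all genes, and 4 lay entirely above and 2 entirely below the corn oil range, against 6.04% and 2.90%.

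**Figure D4:**
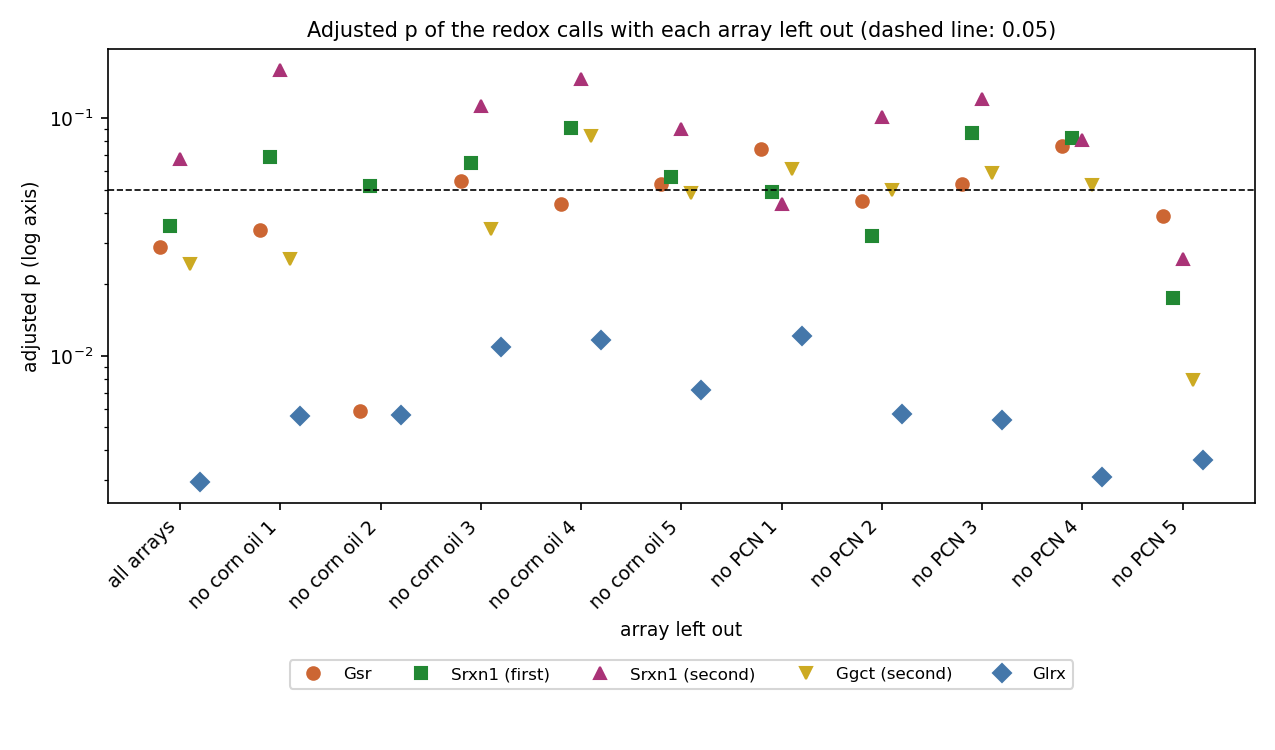
Adjusted p from limma (log axis) for Gsr, Srxn1 on each array type, Ggct and Glrx (1386908_at) with all arrays and with each array left out in turn; the dashed line is the threshold of 0.05 and the second array type has no corn oil replicate 2. Glrx stays below the line throughout, at 0.0121 or less, whereas Gsr, Srxn1 and Ggct cross it when certain single arrays are left out.

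A further 58 redox genes outside the list were taken from general knowledge of these pathways. Earlier results of these data were known, so the shares of all genes are given beside their counts for description only. Of the 58, 48 were tested on the first type of array and 11 on the second. By their brightest probe sets 1 rose on each, Sqstm1 and Blvrb, and 0 fell by limma. At an unadjusted p below 0.05, 11 of 48 were higher and 3 lower on the first (11.1% and 6.69% of all genes), and 2 of 11 were higher and 1 lower on the second (18.3% and 10.6%). On the first, 5 of 48 lay entirely above the corn oil range (3.98% of all genes). Their median log2 fold changes were 0 and 0.06. Counting every probe set, 6 of 61 rose on the first array type, of 4 genes, and 1 of 14 on the second, against 2.31% and 3.76% of all probe sets. By limma 0 fell on either (0.945% and 1.64% of all probe sets).

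Sqstm1, the autophagy receptor that also sequesters KEAP1, read 12.85, 12.46, 12.62, 12.70 and 12.76 in corn oil and 13.72, 13.29, 13.52, 13.51 and 13.33 after PCN by its brightest probe set. This 1.74-fold rise (log2 fold change 0.80 ± 0.09 SE, adjusted p = 0.00127, limma, n = 5 per group) held with each array left out (adjusted p up to 0.00552). A dimmer Sqstm1 probe set also rose, 1.65-fold (adjusted p = 0.0266; lost without corn oil replicate 4 or PCN replicate 1, 3 or 4, up to 0.0679, and at 0.0537 with centring on the common probe sets). The remaining 2, 1371220_at and 1371221_at, had log2 fold changes of -0.04 and -0.11 and were not called. With the probe sets of each gene averaged, Sqstm1 was not called. Me1, malic enzyme, which makes NADPH, rose by the dimmer of its probe sets, 1370870_at, from 7.72, 8.17, 8.07, 7.84 and 7.60 to 9.33, 8.45, 9.44, 9.86 and 8.52. The rise was 2.36-fold (adjusted p = 0.0212), and it was lost without corn oil replicates 4 or 5 or PCN replicates 1 or 3 (0.0565, 0.053, 0.0589 and 0.0569). The brighter Me1 probe set gave 0.56 ± 0.18 (adjusted p = 0.12).

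Nfe2l1, a relative of NRF2, passed by 2 of its 3 probe sets, at 1.44-fold and 1.34-fold (adjusted p = 0.0448 and 0.0371, limma, n = 5 per group). The first of these calls was lost in 14 of the 19 alternatives that did not average probe sets, and the other in 12. Their adjusted p went up to 0.128 and 0.139 when arrays were centred on the common probe sets. Txnl1, a thioredoxin-like protein that associates with the proteasome, rose 1.44-fold by 1 probe set (adjusted p = 0.0343). That call was lost in 10 of the same 19 alternatives, with adjusted p up to 0.0929 without PCN replicate 1. Blvrb, a biliverdin reductase that also reduces flavins with NADPH, rose 1.70-fold on the second array type (log2 fold change 0.77 ± 0.14 SE, adjusted p = 0.0147, 4 corn oil and 5 PCN arrays; 0.0564 without corn oil replicate 4). Hmox1, heme oxygenase and another known NRF2 target, had a log2 fold change of 0.82 ± 0.22 that missed the threshold (adjusted p = 0.0618, limma). It was called higher with the replicate block, without PCN replicate 2, and when arrays were brought to a common trimmed mean.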

How the data were processed

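Per the labels, total RNA was extracted on RNeasy columns with DNase digestion and labelled by the Affymetrix protocol. The authors deposited log2 expression per probe set. The submitters' processing notes name MAS5 without a version, and the summarization and normalization are not given in the sources used here. The base 2 was inferred from the range of values (4.31 to 15.2 and 3.10 to 14.1). Probe sets were named through the platform annotation, with symbols updated by gene identifier to RefSeq on GRCr8.

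Each table was fitted alone. The 57 control probe sets and those under the 30th percentile of the mean (6.67 and 5.51) were left out, leaving 11106 and 10693. Treatment was tested with limma 3.58.1 in R 4.3.3 (moderated variances with an intensity trend, two-sided, Benjamini-Hochberg over each table, threshold 0.05). SE is the moderated standard error and intervals are 95%. The script was tested on simulated data. Members and lists were chosen with earlier results of these data known. Named with values in every array were called members and 10 genes of the NRF2 and glutathione core. Of the other redox genes the called ones were named, and Hmox1, Oplah, Osgin1, Idh1 and Prdx5 were picked out after their values were seen. The number of arrays limits precision, and p-values measure the spread between arrays labelled as biological replicates. Alternatives were filters, scalings, variance models, a replicate block, the mean over a gene's probe sets, and leaving out each array.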

Additional observations from a re-analysis of the deposited data

Results flagged for a closer look

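Values far from the rest of their group were looked for in 92 groups of 4 or 5 arrays, and 15 were found (16.3%, where chance gives about 5%). Of these 10 were on 1 array, the first-type array of corn oil replicate 2. They were the 3′ minus 5′ differences of Gapdh (2.02) and beta-actin (2.28), given above, and the values of Gclc 1370688_at (8.72, others 10.12 to 10.65), Gsr (7.33, others 8.75 to 9.06), Keap1 1387810_at (7.30, others 8.55 to 8.76), Txnrd1 1386958_at (8.17, others 10.34 to 10.67) and 1398791_at (10.55, others 11.17 to 11.33), Mafg 1368874_a_at (7.56, others 8.04 to 8.17), Sod2 (10.43, others 10.84 to 10.95) and Idh1 (13.47, others 13.11 to 13.16). All but Idh1 of these genes were low on that array.

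On the first-type array of corn oil replicate 3, Gpx1 read 13.96 (others 14.21 to 14.27) and Gpx4 12.62 (others 12.43 to 12.46). On the second array type Gpx4 read 8.60 in corn oil replicate 5 (others 8.35 to 8.36), and Slc7a11 read 5.62 in corn oil replicate 1 (others 5.79 to 5.80) and 5.73 in PCN replicate 2 (others 5.79 to 5.81). None of these 5 touches a called gene.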

How the results depend on the processing

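The replicate block left 1 member gene higher on the first array type in place of 2, since Srxn1 was lost (adjusted p = 0.0809, limma), and gave 2 other redox genes higher there in place of 1, Hmox1 being added, and 0 on the second in place of 1, since Blvrb was lost (adjusted p = 0.0757, limma). PCN replicate 2 of the second array type has no partner and adds nothing to that block's estimate. Deviations of same-numbered arrays correlated at -0.301 to 0.284 (first array type) and 0.02 to 0.201 (second). Of the corn oil arrays, 1 of 5 and 1 of 4 correlated best with their own number. With so few arrays, these values do not settle whether the numbers pair the animals. With arrays scaled to a trimmed mean, 2 other redox genes, Sqstm1 and Hmox1, were higher on the first array type. That scaling called 2 members higher and 1 other redox gene, Sesn1, lower on the second in place of 1 and 0. When arrays were centred on common probe sets, the median difference over the whole second array type moved from -0.03 to -0.31, which gave there 2 members higher, 1 lower (Gpx4) and 3 other redox genes lower, and on the first 2 other redox genes lower (Glrx5 and Sesn1). Averaging a gene's probe sets called 3 other redox genes higher on the first array type (Me1, Nfe2l1 and Txnl1), and Sqstm1 was not among them. Leaving out single arrays gave 0 to 3 members higher on the first array type, with Keap1 or Osgin1 added at the upper end, and 0 to 2 on the second. For other redox genes it gave 1 to 2 higher on the first, 0 to 2 higher on the second and 0 to 1 lower on the second. The log2 fold change of Nfe2l2 ran from -0.09 to 0.02 in those fits, so its sign is not settled, while the genes named as called kept theirs in each alternative. The causes were not tested. Signal over background was not analysed here, so weak probe sets were judged by the filter on low values alone.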
